A study of Rattus norvegicus with 12 samples.

Results

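The expression of 10 genes that mark the epithelial, mesenchymal or hepatic character of liver cells was followed in a normal and a tumor rat liver cell line grown with or without arginine. The genes were the keratins Krt8, Krt18 and Krt19, the intermediate filament gene Vim, the cadherin Cdh1 and the liver genes Alb, Afp, Apoc3, A1cf and A2m. They were chosen by name: every probe set of the array whose annotation gives 1 gene symbol, and one of these 10, was taken. This gave 11 probe sets of the 15923 on the array, 2 of them for Alb and 1 for each of the other genes.

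The normal cells were WB-F344, a diploid hepatic epithelial line derived from an adult male Fischer-344 rat and used at low passage. The tumor cells were GP7TB, which came from clonal derivatives of WB-F344 transformed by repeated brief exposure to N-methyl-N-Nitro-N-nitrosoguanidine, an alkylating carcinogen. GP7TB is therefore 1 clonal line compared with 1 parental line. Every culture was moved to Chee's Essential Medium with fetal bovine serum, and RNA was taken after 18 hours. L-arginine HCl was either added at 0.168 g/l (arginine-sufficient, or with arginine) or left out (arginine-deficient, or without arginine). The serum was not dialysed, and for this reason the paper does not regard the deficient medium as full arginine starvation. Each of the 4 groups had 3 cultures with 1 array each, 12 arrays in all, and the cultures were run as matched experiments of 1 arginine-sufficient and 1 arginine-deficient culture, numbered 1 to 3 in each cell type. The question was how transformation and arginine supply bear on the genes that these cells express.

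Simple epithelia build their cytoplasmic filaments from pairs of a type II keratin, such as Krt8 or Krt7, and a type I keratin, such as Krt18 or Krt19. In adult liver Krt8 and Krt18 are the keratins of hepatocytes, Krt7 and Krt19 mark bile ducts, and Vim belongs to stellate, endothelial and other mesenchymal cells. Cultured liver epithelial lines often carry keratin and vimentin filaments together. Afp encodes the fetal counterpart of serum albumin and is re-expressed in many liver tumors.

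The values are signals, the brightness of a probe set on a linear scale as Microarray Suite 5.0 computes it. A probe set was called expressed on an array when its signal lay among the highest 54% of that array, which put the threshold between 146.3 and 191.2 over the 12 arrays. A probe set was tested when it reached this threshold on at least 3 of the 12 arrays, as 9745 of the 15923 did. By definition 46% of the probe sets of each array lie under its threshold, and the counts of the gene lists below are to be read beside these shares. Of the 10 genes, 5 passed through this filter (Krt8, Vim, Apoc3, A1cf and A2m), each with 1 probe set. Krt18, Krt19, Cdh1 and Afp were above the threshold on 0 of 12 arrays, and the better Alb probe set on 2 of 12. Signals of different probe sets depend on how well each one hybridises, so no level of a gene was set against that of another gene. A low signal from a gene's single probe set cannot be told apart from a probe set that hybridises poorly.

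Scanning of the normal arrays took 3 days and that of the tumor arrays 1 further day, and a cell type effect and a scan day effect on a level cannot be told apart. The same holds for the chip lot, since no lot was used for both cell types. Partners of an experiment shared a scan day except in normal experiment 2. They shared a chip lot only in normal experiments 1 and 3 and in tumor experiment 3. Trypsin is noted in the records of tumor cultures only, as not used in experiment 2 and used in experiments 1 and 3. The ratio of the 3 prime to the 5 prime Gapdh probe sets, a measure of RNA integrity, ran from 0.998 to 1.38 in normal cells and from 1.09 to 1.23 in tumor cells. It was higher in the arginine-deficient culture in 6 of 6 experiments, and its part in the results below was not tested.

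The promoters of Krt8 and Krt18, neighbouring protein-coding genes whose products pair in hepatocytes, and of Vim are shown as the regulatory sequence of the main filament genes. Each is the 250 bases before the start given in a RefSeq promoter table (GRCr8), written 5′ to 3′ on the gene's own strand. Capitals mark motifs found on either strand. The TATA box, where the transcription machinery is placed, was searched as TATAAA. The CCAAT box, which is named by the letters searched, and the GC box of Sp1 and its relatives, searched with the letters GGGCGG, were the other motifs for these genes.
Krt8 chr7:135010340-135010589 (minus strand): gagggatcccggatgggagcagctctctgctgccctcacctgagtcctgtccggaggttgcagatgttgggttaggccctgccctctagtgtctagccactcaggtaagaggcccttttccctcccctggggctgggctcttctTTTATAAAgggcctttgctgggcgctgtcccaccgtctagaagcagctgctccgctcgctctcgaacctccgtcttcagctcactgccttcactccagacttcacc
Krt18 chr7:135035918-135036167 (plus strand): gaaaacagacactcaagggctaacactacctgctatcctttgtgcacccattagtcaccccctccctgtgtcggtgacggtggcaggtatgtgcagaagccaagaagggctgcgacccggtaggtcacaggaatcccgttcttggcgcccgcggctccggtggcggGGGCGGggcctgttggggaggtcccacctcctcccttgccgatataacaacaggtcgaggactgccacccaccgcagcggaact
Vim chr17:81577011-81577260 (plus strand): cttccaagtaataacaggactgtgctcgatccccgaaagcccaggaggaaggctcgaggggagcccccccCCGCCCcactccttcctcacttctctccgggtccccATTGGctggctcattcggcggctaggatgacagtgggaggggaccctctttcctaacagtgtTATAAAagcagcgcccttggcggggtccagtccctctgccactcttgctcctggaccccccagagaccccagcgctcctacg
The Krt8 window held the TATA box letters on both strands, overlapping each other. The Krt18 window held 1 GC box and none of the other motifs, and the Vim window held a TATA box, a CCAAT box and a GC box. Of 33469 rat promoters in the same table, 12.9% held a TATA box, 34.0% a CCAAT box and 30.5% a GC box in a window of this length. A match describes letters only.

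Krt8, the type II keratin of hepatocytes, was strongly expressed in both cell types. In arginine-sufficient normal cells its signal was 3970, 7042 and 6794 in experiments 1, 2 and 3. In arginine-deficient normal cells it was 2159, 5589 and 3876 in the same order. In tumor cells it was 6257, 8753 and 11223 with arginine. Without arginine the tumor cells had 5692, 7406 and 9817. Krt8 was thus lower in the arginine-deficient culture in 6 of 6 experiments, as were 10.1% of the tested probe sets, while the ranges of the groups overlapped in both cell types. From highest to lowest the groups ran tumor with arginine, tumor without, normal with and normal without, and each group overlapped the next.

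**Figure D1:**
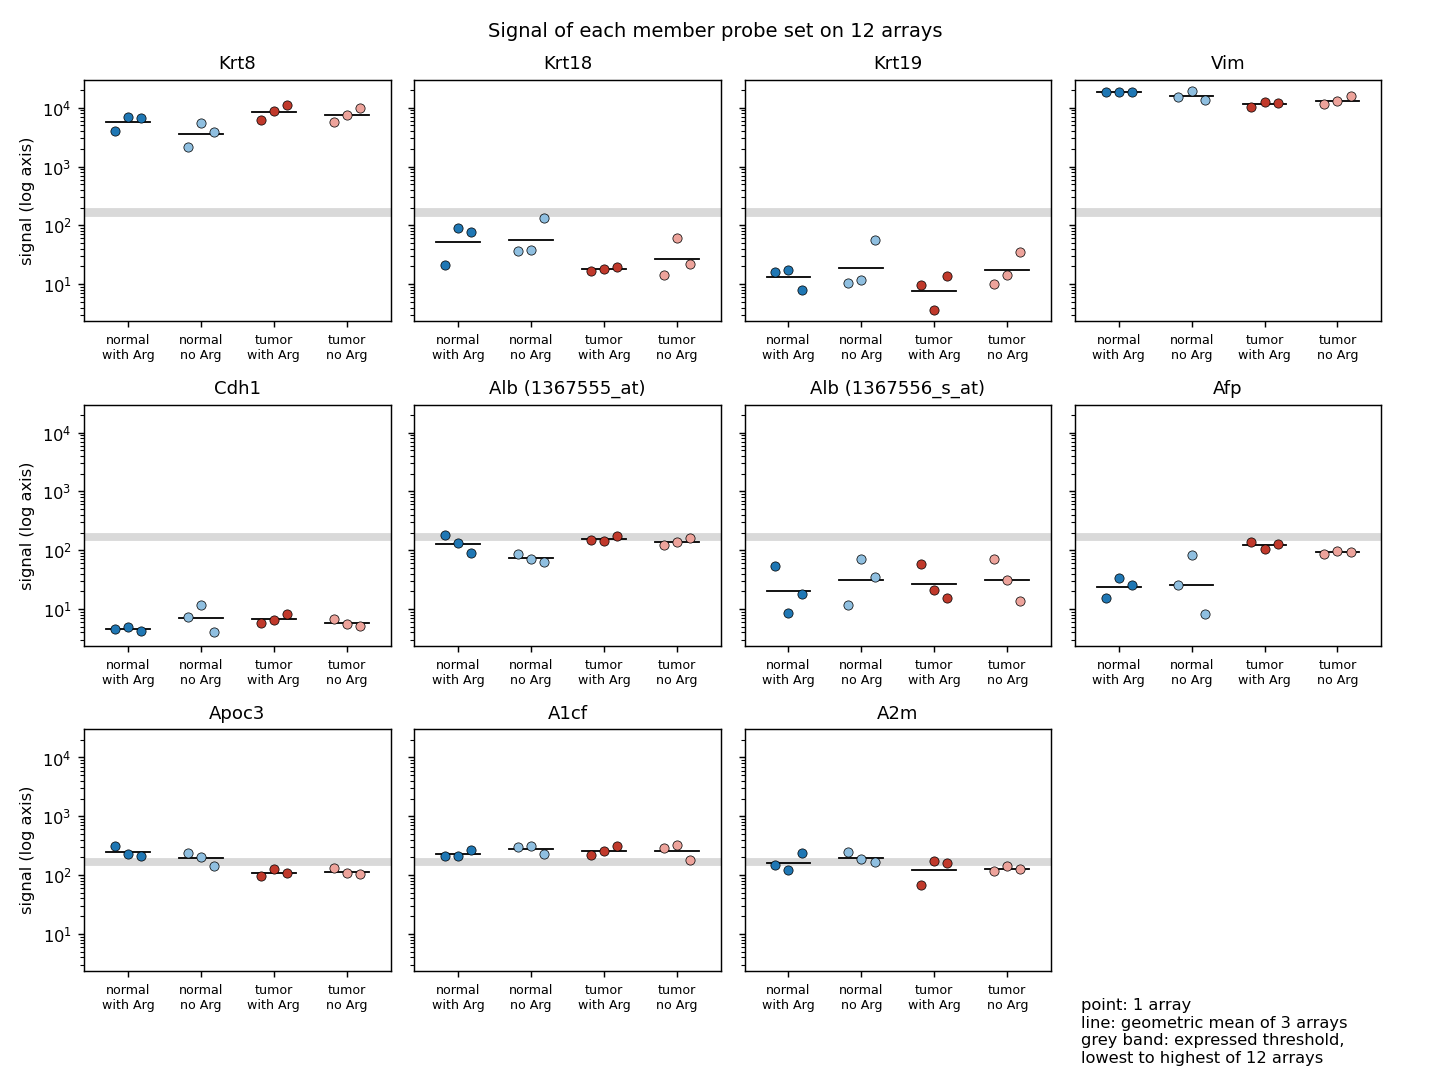
Signal of the 11 probe sets on the 12 arrays (vertical log axis), by group on the horizontal axis, where Arg is L-arginine. Each point is 1 array, each line the geometric mean of 3 arrays, and the grey band the expressed threshold from 146.3 to 191.2; Krt8 and Vim lie far above the band and A1cf in or above it in every group, and Krt18, Krt19, Cdh1 and Afp below it.

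The change of Krt8 in normal cells was -0.67 on the log2 scale (SE 0.34, n = 3 arrays a group), which did not pass in the limma fit that leaves the experiments unmatched (adjusted p = 0.574). That fit called 0.164% of probe sets in normal cells. With the experiment as a block, the same change had an SE of 0.12 and passed limma's test (adjusted p = 0.018), where 1.03% of probe sets were called lower. The 3 experiments gave log2 changes of -0.88, -0.33 and -0.81. The arrays of experiment 2 differed from each other in scan day and chip lot, so arginine cannot be told apart from these in the -0.33. The block does not remove that difference. The Gapdh ratios with and without arginine were 1.25 and 1.38 in experiment 1, and 1.15 and 1.17 in experiment 2. In experiment 3 they were 0.998 and 1.01. Their part in the change of Krt8 was not tested. Among normal arrays scanned on the same day, the log2 change was -0.19 on one day (1 array with and 2 without arginine) and -0.81 on another (1 array each). The first value crosses experiments, since the arginine-sufficient array was of experiment 1 and the arginine-deficient ones of experiments 1 and 2.

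In tumor cells Krt8 changed by -0.19 (SE 0.34) on the log2 scale, with experiments at -0.14, -0.24 and -0.19, and did not pass limma's test (adjusted p = 0.854), which called 1.91% of probe sets there, nor with the experiment as a block (adjusted p = 0.351). Among tumor arrays of one chip lot the change was 0.03 (2 arrays with and 2 without arginine) and among those of the other it was -0.62 (1 array each). Both values cross experiments. The second sets the arginine-deficient array of experiment 1 against the arginine-sufficient array of experiment 2, so lot and experiment cannot be told apart in it. The difference between the responses of the cell types was 0.48 (SE 0.48) on the log2 scale and did not pass either (limma, adjusted p = 0.969, and 0.246 with the block). For that difference limma called 0% of all tested probe sets (550 had an unadjusted p below 0.05) and 0.0513%, or 5, once the experiment was a block.

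**Figure D2:**
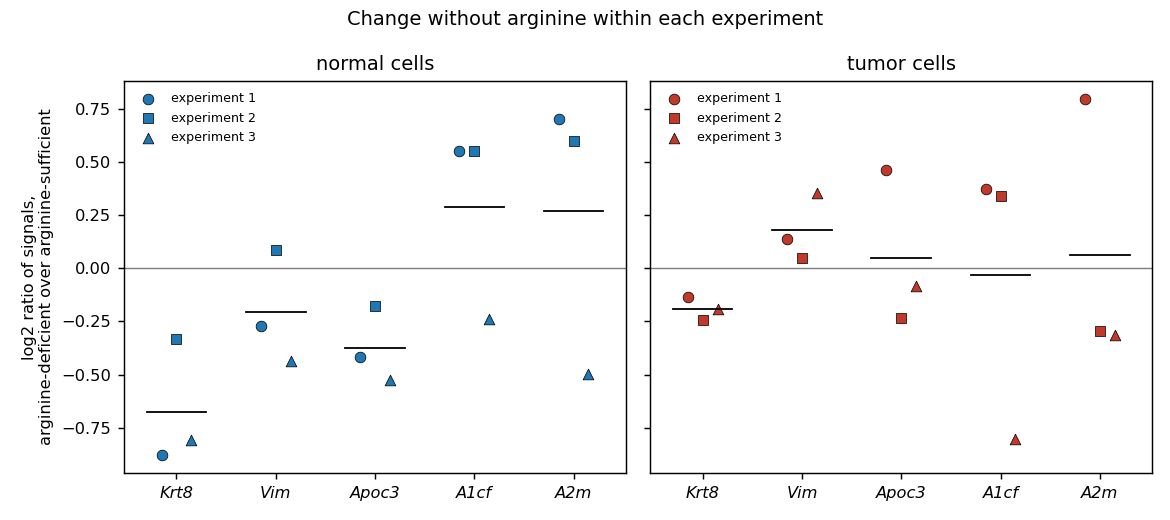
Log2 ratio of signals, arginine-deficient over arginine-sufficient (vertical axis), within each experiment for the 5 tested genes, in normal (left) and tumor cells (right). Symbols mark experiments and lines their mean; all 6 Krt8 points lie below 0, from -0.88 to -0.14.

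Krt8 was higher in tumor than in normal cells in the arginine-deficient medium, by 1.05 (SE 0.34) on the log2 scale, and passed (limma, adjusted p = 0.0241). With arginine the difference was 0.56 (SE 0.34) and did not pass (adjusted p = 0.219). Over all tested probe sets, 40.7% were called between the cell types without arginine and 34.6% with it. The call without arginine was lost when the normal array of experiment 1 was left out (0.68, adjusted p = 0.115), or the tumor array of experiment 2 (1.05, adjusted p = 0.0600) or of experiment 3 (0.85, adjusted p = 0.100).

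Krt18, the usual type I partner of Krt8, lay under the threshold on every array. Its signals were 21.0, 91.3 and 76.8 in normal cells with arginine and 36.5, 37.4 and 134.8 without. In tumor cells they were 16.8, 17.8 and 19.9 with arginine and 14.5, 59.9 and 21.7 without. The groups overlapped except between tumor and normal cells with arginine, where the lowest normal array stood just above the highest tumor array. In that comparison 49.2% of tested probe sets, which do not include Krt18, did not overlap. Krt19, a type I keratin of bile ducts and of hepatic progenitors, ran from 3.6 to 56.3 over the 12 arrays, also under the threshold on all of them. No fold is given for either gene.

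By a rule of a 2-fold ratio in at least 6 of the 9 comparisons of arginine-deficient with arginine-sufficient arrays, Krt8, Vim, Apoc3, A1cf and A2m were called in neither cell type, and the rule called 1.13% of tested probe sets in normal and 2.47% in tumor cells. Krt8 came closest, lower by 2-fold in 2 of 9 comparisons in normal cells.

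The other keratins of the array set Krt8 in context. Of 25 listed keratin genes besides these 3, 11 were on the array, 3 were tested and 5 were above the threshold on 0 of 12 arrays. Krt7, a type II keratin of bile ducts, was lower in tumor cells by 4.33 on the log2 scale with arginine (SE 0.29; limma, adjusted p = 1.29e-07). Its signals were 5008 to 6321 in normal and 257.7 to 309.6 in tumor cells with arginine, a wide gap. Without arginine they were 3199 to 6115 and 175.8 to 382.4. Krt14, a type I keratin of basal epithelial cells, went the other way and was higher in tumor cells with arginine by 4.62 (SE 0.57; limma, adjusted p = 4.14e-05). Its signals there were 142.5 to 383.7 in normal cells and 3035 to 8436 in tumor cells. Without arginine Krt14 was 163.4 to 205.6 in normal and 584.5 to 3561 in tumor cells. In tumor cells its change without arginine was -1.77 (SE 0.57) and did not pass (limma, adjusted p = 0.141), although 1 keratin gene, Krt14, was called lower with the experiment as a block, a fit that called 11% of probe sets. Krt20, the third tested keratin, was not called in either comparison of the cell types. Krt14 was the one type I keratin on the array above the threshold on all 3 arrays of both tumor groups, whereas no type I keratin was above it on all 3 arrays of a normal group.

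Vim, the intermediate filament protein of mesenchymal cells, was bright on every array. In normal cells its signal was 18212, 18359 and 18245 with arginine and 15094, 19486 and 13491 without. In tumor cells it was 10354, 12438 and 12243 with arginine and 11398, 12885 and 15657 without. With arginine every normal array stood above every tumor array, as the groups did not overlap for 49.2% of the tested probe sets. Without arginine the ranges overlapped.

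Vim was lower in tumor cells with arginine by 0.65 on the log2 scale (SE 0.16) and passed (limma, adjusted p = 0.00738). Median centring, which moved the median of all tested probe sets to 0.12, left -0.53 and ended the call (adjusted p = 0.0622). Without arginine the difference was -0.26 (limma, adjusted p = 0.218). Arginine deficiency changed Vim by -0.21 in normal cells (adjusted p = 0.744) and by 0.18 in tumor cells (adjusted p = 0.654), both in limma and both short of the threshold. Vim was higher without arginine in 3 of 3 tumor experiments and lower in 2 of 3 normal ones.

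Genes that build or anchor intermediate filaments included some called between the cell types. Of 21 listed, 17 were on the array and 12 were tested. With arginine 4 were higher and 2 lower in tumor cells, and without arginine again 4 and 2, so 6 of 12 were called in each medium, against 34.6% and 40.7% of all tested probe sets. Macf1, which links filaments and microtubules to actin, was lower in tumor cells with arginine by 2.76 (SE 0.20; limma, adjusted p = 3.72e-07), with signals of 3549 to 4624 in normal and 508.4 to 643.6 in tumor cells. Evpl, a cornified envelope and desmosome protein, was at least 2.41-fold higher in tumor cells with arginine, since its normal arrays lay under the threshold (limma, adjusted p = 0.0103). Lmnb2, a nuclear lamin, was higher in tumor cells by 1.33 with arginine (SE 0.30; limma, adjusted p = 0.00423), and Des, the muscle filament desmin, was lower by 1.20 (SE 0.37; adjusted p = 0.0208), with 1 of 3 tumor arrays above the threshold. In the response to arginine deficiency 2 of these genes were called in tumor cells, where 1.91% of all tested probe sets were, and 0 in normal cells, where 0.164% were. Macf1 fell by 0.88 on the log2 scale (limma, adjusted p = 0.0445) and Lmna, the lamin of the nuclear envelope, fell by 0.68 (adjusted p = 0.0446). In normal cells Lmna changed by -0.50 (limma, adjusted p = 0.324, and 0.0464 with the experiment as a block), and the difference of response passed for neither gene (adjusted p = 0.824 for Macf1 and 0.970 for Lmna). The list's median change there was -0.35, against -0.05 over all tested probe sets.

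**Figure D3:**
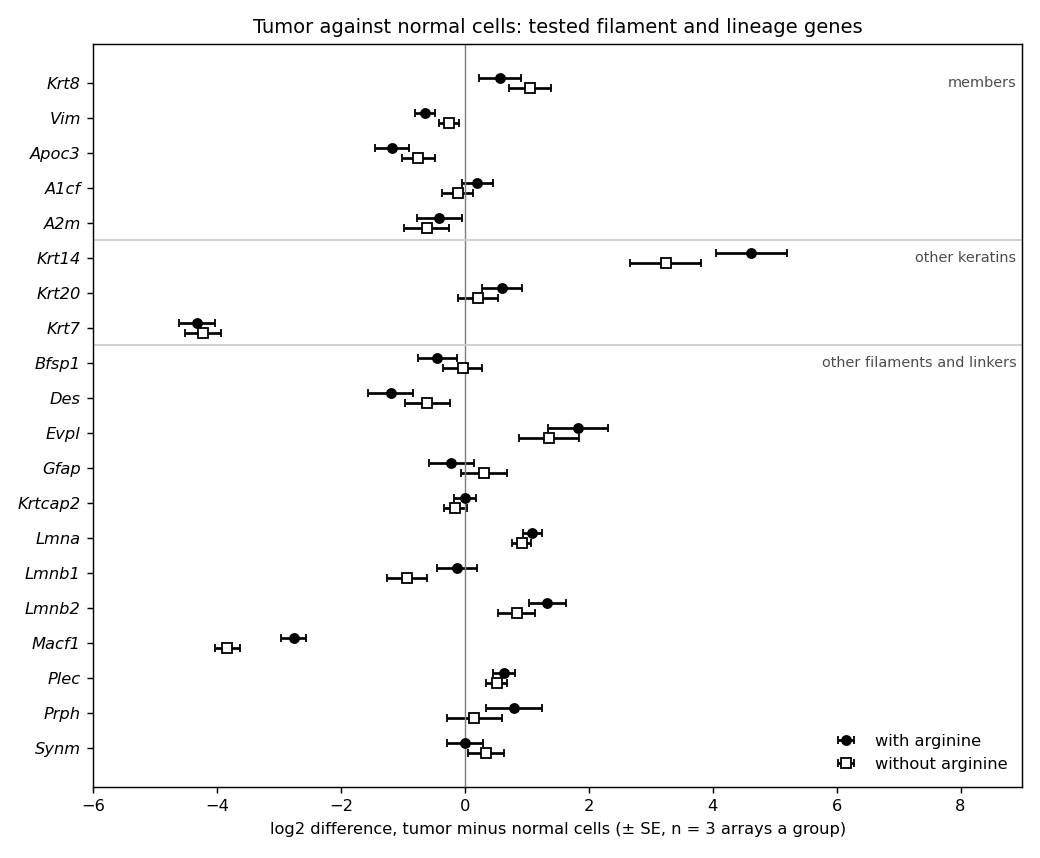
Log2 difference between tumor and normal cells (horizontal axis, ± SE, n = 3 arrays a group) for the tested genes with arginine (filled circles) and without (open squares). Krt7 and Macf1 lie far to the left, Krt14 far to the right, and Krt8, Vim, Apoc3, A1cf and A2m within 1.2 of 0.

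Cdh1, the E-cadherin of epithelial junctions, lay under the threshold on every array. Its signals were 4.6, 5.0 and 4.3 in normal cells with arginine and 7.4, 11.5 and 4.0 without. In tumor cells they were 5.8, 6.4 and 8.3 with arginine and 6.7, 5.6 and 5.1 without. No fold is given.

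Other junction genes were called in both directions between the cell types. Of 46 listed, 28 were on the array, 16 were tested, and 4 were higher and 5 lower in tumor cells with arginine, with the same counts without it. The shares over all tested probe sets were 16.4% higher and 18.1% lower with arginine, and 19.5% and 21.2% without it. Dsc2, a desmosomal cadherin, was at least 1.91-fold higher in tumor cells with arginine and at least 3.59-fold higher without (limma, adjusted p = 1.43e-06 and 6.04e-07). Its signals were 9.6 to 19.3 over the normal arrays and 281.0 to 927.5 over the tumor arrays. F11r, a tight junction adhesion molecule, was at least 1.84-fold higher in tumor cells with arginine (limma, adjusted p = 0.00301). Ocln, the tight junction protein occludin, was at least 7.30-fold lower in tumor cells with arginine (limma, adjusted p = 1.87e-07). Nectin2, an adherens junction molecule, was at least 4.53-fold lower (limma, adjusted p = 5.35e-06), and Pkp2, a desmosomal plaque protein, at least 1.93-fold lower (adjusted p = 6.72e-05). Dsc2 and F11r entered the tested set through tumor arrays alone, and Ocln, Nectin2 and Pkp2 through normal arrays alone. Their calls are therefore not independent of the filter. No junction gene was called in the response to arginine deficiency without the block. Once the experiment was a block, 2 were called higher and 2 lower in tumor cells. That fit called 4.79% of all tested probe sets higher there and 6.18% lower.

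Among the mesenchymal genes listed beside Vim, more were called lower than higher in tumor cells. Of 42 listed, 34 were on the array and 28 were tested, of which 5 were higher and 13 lower in tumor cells with arginine and 3 higher and 14 lower without. Over all tested probe sets, 16.4% were higher and 18.1% lower with arginine, and 19.5% and 21.2% without. The list's median log2 difference was -0.29 with arginine and -0.53 without, against 0.00 and 0.01 over all tested probe sets. Col1a2, a chain of type I collagen, was at least 134-fold lower in tumor cells with arginine, and Tagln, a smooth muscle actin-binding protein, at least 22.1-fold lower (limma, adjusted p = 2.92e-08 and 2.91e-09). Cdh2, the N-cadherin of mesenchymal and hepatic cells, named beside Cdh1 after its values were seen, was at least 2.49-fold lower in either medium (limma, adjusted p = 0.000257 with arginine and 1.81e-05 without). Against this direction, Loxl1, a collagen crosslinking enzyme, was at least 4.33-fold higher in tumor cells with arginine (limma, adjusted p = 3.21e-08). Tnc, the matrix protein tenascin C, was higher by 6.17 on the log2 scale without arginine (SE 0.51; adjusted p = 1e-06), with 1 of 3 normal arrays above the threshold. Col1a2, Tagln and Cdh2 entered the tested set through normal arrays alone, and Loxl1 through tumor arrays alone. Their calls, and so in part the counts and the median of the list, are not independent of the filter. The list was also chosen with earlier results of these data known.

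Of the liver genes, Alb and Afp, which stand next to each other in the genome, are shown with their promoters in the same form. The start that the table gives for Alb lies inside the gene's span in RefSeq. The last bases printed, those nearest that start, therefore lie within the span, and only the outer bases lie before it.
Alb chr14:17906980-17907229 (minus strand): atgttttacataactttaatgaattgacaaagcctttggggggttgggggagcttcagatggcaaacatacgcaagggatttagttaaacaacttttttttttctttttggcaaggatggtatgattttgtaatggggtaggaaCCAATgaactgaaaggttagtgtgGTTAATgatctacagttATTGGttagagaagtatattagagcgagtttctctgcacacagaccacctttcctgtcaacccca
Afp chr14:17875646-17875895 (minus strand): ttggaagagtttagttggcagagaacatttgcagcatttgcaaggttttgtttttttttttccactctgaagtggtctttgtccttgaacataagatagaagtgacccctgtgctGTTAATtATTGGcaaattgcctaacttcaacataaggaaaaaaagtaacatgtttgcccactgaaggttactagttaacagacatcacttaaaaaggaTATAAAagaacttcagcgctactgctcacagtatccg
The Alb window held a CCAAT box on each strand and 1 HNF1 half-site, searched as GTTAAT, one arm of the site of the liver factor HNF1, which 6.5% of the 33469 promoters held. The Afp window held a TATA box, a CCAAT box and 1 HNF1 half-site.

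Afp stayed under the threshold on every array and was brighter in tumor cells. Its signals were 15.3, 33.8 and 25.9 in normal cells with arginine and 25.4, 82.5 and 8.1 without. In tumor cells they were 139.1, 104.8 and 127.5 with arginine and 87.8, 97.3 and 93.5 without. Every tumor array stood above every normal array, as it did for 9.15% of the 15866 probe sets left when no filter was applied. Without a filter, limma gave an adjusted p of 0.0190 with arginine and 0.0521 without. No fold is given, since both cell types lay under the threshold.

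The 2 probe sets of Alb, the main plasma protein of the liver, disagreed. The unique probe set gave 178.7, 130.5 and 90.4 in normal cells with arginine and 87.3, 69.9 and 63.4 without. In tumor cells it gave 150.9, 141.7 and 176.5 with arginine and 123.1, 140.2 and 160.8 without. In normal cells the arginine-deficient arrays lay below the arginine-sufficient ones, and they lay below all tumor arrays. Among tested probe sets, which do not include Alb, groups did not overlap for 13.9% in the first of these comparisons. In tumor against normal cells without arginine the share was 48.6%. Shares without the filter are not given for these comparisons. The other, whose _s_at name marks probes that can match several transcripts, ran from 8.4 to 71.5 with no order among the groups. Neither was tested in the main fit: the unique probe set reached the threshold on 2 of 12 arrays, both of tumor cells, and the other on 0 of 12. Without a filter, limma gave the unique probe set an adjusted p of 0.0335 for tumor minus normal without arginine and 0.589 with it. The other probe set had 0.991 and 0.809. For the response in normal cells the unique probe set had an adjusted p of 0.480 in that fit.

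Apoc3, an apolipoprotein of triglyceride-rich particles, was brighter in normal cells in both media. Its signals were 318.0, 231.0 and 209.4 in normal cells with arginine and 238.5, 204.3 and 145.5 without. In tumor cells they were 97.2, 125.5 and 109.7 with arginine and 134.2, 106.8 and 103.6 without. All 6 normal arrays stood above all 6 tumor arrays, a separation that 29% of the tested probe sets showed in one direction or the other. The 5 arrays above the threshold were all normal, so Apoc3 entered the tested set through the normal arrays alone.

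With arginine, Apoc3 was at least 1.49-fold higher in normal cells (limma, adjusted p = 0.00457), a bound because the tumor arrays were under the threshold. With no filter on low signals the adjusted p was 0.00748 with arginine and 0.0597 without. Without arginine it was at least 1.22-fold higher, with 2 of 3 normal arrays above the threshold (limma, adjusted p = 0.0407). The second call was lost without the arginine-deficient normal array of experiment 1 (adjusted p = 0.147) or 2 (0.0931), without the tumor array of experiment 2 (0.103) or 3 (0.111), or without the arginine-sufficient normal or tumor array of experiment 2 (0.0511 and 0.0512). Arginine deficiency changed Apoc3 by -0.37 on the log2 scale in normal cells (limma, adjusted p = 0.723), where it was lower in 3 of 3 experiments, as were 23.2% of tested probe sets.

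A1cf, the RNA-binding partner of the enzyme that edits Apob messenger RNA, was above the threshold on 12 of 12 arrays and passed in no comparison. Its signals were 208.2, 213.0 and 265.2 in normal cells with arginine and 305.1, 312.5 and 224.7 without. In tumor cells they were 223.8, 254.2 and 314.2 with arginine and 289.9, 321.5 and 179.8 without. The log2 difference of tumor minus normal was 0.20 with arginine and -0.12 without (limma, adjusted p = 0.575 and 0.738). Of 8 listed genes tied to this editing, the edited Apob among them, 7 were on the array and 6 were tested. In tumor cells 0 were higher and 2 lower with arginine. Without arginine 1 was higher, Apob itself, and 3 were lower. The shares over all tested probe sets were 16.4% higher and 18.1% lower with arginine, and 19.5% and 21.2% without. Celf2, an RNA-binding protein, was lower by 2.53 with arginine (SE 0.22; limma, adjusted p = 1.74e-06). Apobec1, the editing enzyme itself, had mean signals of 3.1 to 4.7 in the 4 groups, under the threshold on every array.

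A2m, a plasma protease inhibitor that rises in the rat acute phase, lay around the threshold. Its signals were 149.5, 124.1 and 235.8 in normal cells with arginine and 243.4, 188.2 and 167.2 without. In tumor cells they were 67.8, 173.2 and 157.9 with arginine and 117.9, 141.2 and 126.9 without. The ranges overlapped with arginine. Without it every normal array stood above every tumor array, as groups did not overlap for 48.6% of tested probe sets, and the bound of at least 1.25-fold higher in normal cells, with 2 of 3 normal arrays above the threshold, went with no call (limma, adjusted p = 0.193).

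The wider hepatocyte program lay mostly under the threshold in both cell types, although both are labelled as hepatic cells. Of 54 listed secreted plasma proteins 39 were on the array, 30 were above the threshold on 0 of 12 arrays and 0 on all 12. One of the 4 tested was called, Apob, the core protein of lipoproteins, which was higher by 1.61 in tumor cells without arginine (SE 0.53; limma, adjusted p = 0.0276), with 1 of 3 normal arrays and 3 of 3 tumor arrays above the threshold. Of 42 listed metabolic enzymes 36 were on the array, 25 were above the threshold on 0 of 12 arrays and 9 were tested. Over the whole array 9745 of the 15923 probe sets were tested. The share above the threshold on 0 or on all 12 arrays is not given for the whole array. With arginine 0 were higher and 1 lower in tumor cells, and without arginine 3 were higher and 2 lower. For both lists, the shares over all tested probe sets were 16.4% higher and 18.1% lower with arginine, and 19.5% and 21.2% without. Sult1a1, a sulfotransferase, was lower in both media, by 0.68 and 1.41 on the log2 scale (limma, adjusted p = 0.0290 and 0.00025). Arg1, the liver arginase that splits arginine, fell by 1.57 on the log2 scale in arginine-deficient tumor cells (SE 0.33; limma, adjusted p = 0.0293), with 1 of 3 arginine-deficient arrays above the threshold.

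Transcription factors of the liver were expressed in part. Of 26 listed 23 were on the array, 5 were above the threshold on all 12 arrays and 13 on 0 of 12, and 7 were tested. Gata4 and Gata6, zinc finger factors of early endoderm, were lower in tumor cells with arginine by 1.28 (SE 0.21) and 1.48 (SE 0.24), and both passed (limma, adjusted p = 0.000429 and 0.000427). Zfhx3, also known as a repressor of Afp, was at least 2.20-fold lower in tumor cells with arginine (limma, adjusted p = 0.00176). Foxa2, a forkhead factor of liver and gut, was higher by 0.68 with arginine (SE 0.23; limma, adjusted p = 0.0373). Without arginine 0 were higher and 4 lower. All tested probe sets were called higher in 16.4% and lower in 18.1% with arginine, and in 19.5% and 21.2% without. Hnf4a, a master regulator of hepatocytes, had mean signals of 96.5 to 128.1 and was above the threshold on 1 array.

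**Figure D4:**
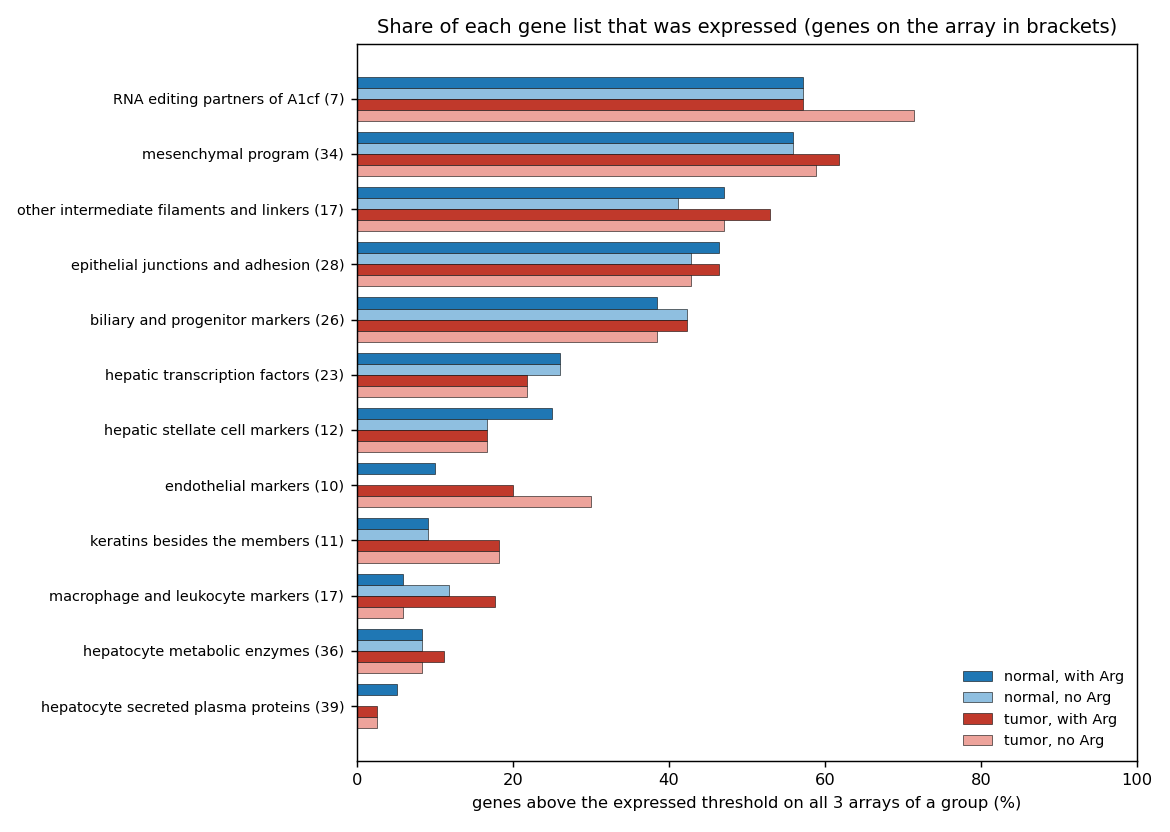
Percent of the genes of each list on the array (horizontal axis) above the expressed threshold on all 3 arrays of a group, with the number of genes on the array in brackets and bars coloured by group. Plasma proteins and metabolic enzymes sit near 0 in all 4 groups, from 0 to 11.1%, and the mesenchymal list lies between 55.9 and 61.8%.

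Markers of bile duct and progenitor cells were expressed in part. Of 32 listed 26 were on the array and 15 were tested, with 4 higher and 4 lower in tumor cells with arginine and 6 higher and 4 lower without. Over all tested probe sets, 16.4% were higher and 18.1% lower with arginine, and 19.5% and 21.2% without. Gpc3, an oncofetal glypican, was at least 16.8-fold lower in tumor cells with arginine, and Igf2, a fetal growth factor, at least 27.5-fold lower (limma, adjusted p = 8.55e-10 and 8.65e-08). Cd44, a hyaluronan receptor, was at least 23.2-fold higher (limma, adjusted p = 4.6e-07). Gpc3 and Igf2 entered the tested set through normal arrays alone, and Cd44 through tumor arrays alone, so their calls are not independent of the filter. Krt7, described above, is also on this list. Ggt1, a fetal and preneoplastic liver enzyme, rose by 0.90 in arginine-deficient tumor cells (SE 0.20; limma, adjusted p = 0.0382).

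Markers of other liver cells were tested in a smaller share than the 9745 of 15923 probe sets of the whole array. Of 14 listed stellate cell genes 12 were on the array, 4 were tested and 7 were above the threshold on 0 arrays, with 2 lower in tumor cells with arginine and 1 without. Of 13 listed endothelial genes 10 were on the array, 4 were tested and 6 were above it on 0 arrays, with 2 higher and 1 lower in tumor cells in each medium. Lyve1, of lymphatic and sinusoidal endothelium, was at least 3.01-fold higher in tumor cells with arginine (limma, adjusted p = 1e-05). Eng, on the same list, was at least 2.25-fold higher (limma, adjusted p = 2.36e-06). Flt1 was at least 3.35-fold lower (limma, adjusted p = 0.000433). The endothelial markers Pecam1, Kdr and Vwf were among those under the threshold on every array. Lyve1 and Eng entered the tested set through tumor arrays alone, and Flt1 through normal arrays alone. Of 21 listed macrophage and leukocyte genes 17 were on the array, 3 were tested and 0 were called. Between the cell types, 16.4% of all tested probe sets were higher and 18.1% lower in tumor cells with arginine. Without arginine the shares were 19.5% and 21.2%. In normal cells, 0 genes of any of these lists were called in the response to arginine deficiency without the block. With the experiment as a block, 1 mesenchymal and 1 filament or linker gene were called lower in normal cells, and 1 biliary or progenitor gene was called higher and 2 lower, where 1.39% of all tested probe sets were called higher and 1.03% lower. In tumor cells the block gave 1 higher and 6 lower mesenchymal genes, 4 lower filament and linker genes, 2 lower metabolic enzymes, 1 higher and 1 lower transcription factor, and 1 higher biliary or progenitor gene, where 4.79% of all tested probe sets were called higher and 6.18% lower. The summed signal of the stellate list with arginine ran from 2621 to 3277 in normal and from 2022 to 2270 in tumor cells, and without it from 2290 to 2528 and from 1660 to 1997. That of the endothelial list ran from 711.5 to 1377 and from 1325 to 1608 with arginine, and from 460.0 to 884.9 and from 1247 to 1365 without. That of the macrophage and leukocyte list ran from 1781 to 2079 and from 1921 to 2324 with arginine, and from 1826 to 1914 and from 1611 to 2880 without.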

How the data were processed

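RNA of 12 rat cell cultures was hybridised to Affymetrix RAE230A arrays. The deposited values are linear intensities, 1 signal for each probe set, which the authors computed in Microarray Suite 5.0 with every array scaled to a common trimmed mean. Each array's deposited run record, a short text, gave its chip lot, scan day and trypsin note. The authors' change calls were not used.

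Values were analysed as log2 of the signal, with 1 as the lowest signal allowed. The 9745 tested probe sets reached the 46th percentile of their array on at least 3 of 12 arrays, after 57 controls were left out. Group means were fitted to all tested probe sets with limma 3.58.1 (R 4.3.3; empirical Bayes with an intensity trend, 8 residual degrees of freedom), with Benjamini-Hochberg adjustment over all of them at 0.05, and the scripts were tested on simulated data. The contrasts were the response to arginine deficiency in each cell type, their difference, and tumor minus normal in each medium. Arrays give no counts, and 3 arrays a group limit the precision.

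Partners from one experiment were read from the paper's first table and from the run records, whose sample codes were consecutive in 6 of 6 pairs. Deviations of partners from their group means correlated by 0.383 to 0.429 in normal and by 0.037 to 0.56 in tumor cells. The block for the experiment leaves 4 residual degrees of freedom.

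A gene with several probe sets in a list was taken by its brightest one, gene symbols came with the array annotation (12777 probe sets with 1 symbol), and 12742 of them were checked by gene identifier with 0 changed. Named genes are all 10 members, up to 4 called genes of each list with the largest difference, markers that define a list's cells, and the 3 probe sets most correlated with each tested member. The members and lists were chosen with earlier results of these data known. Where all arrays of a group lay under the threshold, a fold is a lower bound against the threshold. The adjusted p beside such a bound belongs to the log2 difference of the measured signals, those under the threshold included, and not to the bound. The planned within-array ratios to Krt18 are not reported, since Krt18 lay under the threshold on 12 of 12 arrays. Alternatives covered the filter, an offset of 16, normalization, the model, blocks and left-out arrays. Leaving out the tumor cultures of experiment 2, whose records note no trypsin, was chosen after seeing the data. Python 3.11.15, numpy 2.4.6, pandas 2.3.3 and matplotlib 3.10.9 were used.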

Additional observations from a re-analysis of the deposited data

How the results depend on the processing

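Of 600 recomputed values of single genes, 563 kept their direction and their side of the threshold, 19 fell below it, 2 passed it and 16 changed sign. With the replicate block for the experiment, 1 gene (Krt8) was called in normal cells in place of 0, and this block changed no other call of the 5 tested genes. Tumor minus normal with arginine had 2 calls, and 1 when only the highest 40% of an array counted or after median centring. Without arginine the 2 calls became 1 with the highest 40%, low signals raised to the threshold, median centring, a plain linear model, the scan day as a random block (which cannot separate day from cell type) or the arrays of the contrast alone, and 0 without the tumor cultures that skipped trypsin. Leaving out each array in turn gave 2 calls every time with arginine and 0 to 2 without. With no filter on low signals, Afp also passed with arginine (limma, adjusted p = 0.0190), and the unique Alb probe set passed without it (0.0335). Krt8 without arginine was lost under a plain linear model (adjusted p = 0.0813) and without the cultures that skipped trypsin (0.0800), and Vim without arginine passed after quantile normalization (-0.32, adjusted p = 0.0341). Apoc3 without arginine was lost with no filter (adjusted p = 0.0597), raised low signals (-0.36, 0.105), quantile normalization (0.0658), median centring (0.0764), the scan day block (0.0584), the contrast alone (0.0856) and without the trypsin-free cultures (0.125). 

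Signs changed in values that passed in no setting. With raised low signals the tumor response of Apoc3 was -0.081 and that of A2m -0.12. The tumor response of A1cf was 0.067 after quantile normalization and 0.050 after median centring, and its tumor minus normal difference without arginine 0.0097 after quantile normalization. Leaving out each array, the tumor response ranged from -0.41 to 0.010 for Krt8, -0.067 to 0.14 for Apoc3, -0.20 to 0.22 for A1cf and -0.37 to 0.31 for A2m. The same ranges were -0.64 to 0.041 for the difference of response of A2m, -0.66 to 0.016 for A2m with arginine and -0.28 to 0.14 for A1cf without. The cause of these shifts was not tested. The chip lot as a block could not be fitted between the cell types, and the difference of response needs all arrays, so it has no value from the contrast alone. Signals under the threshold leave Krt18, Krt19, Cdh1, Alb and Afp without a fold and give only bounds between the cell types for Apoc3 and, without arginine, for A2m.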

Other observations

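For each tested gene, the 3 probe sets with the most similar log2 signals over the 12 arrays are given as a description; the 12 arrays share 2 cell types and 2 media, so a difference between cell types alone gives high values. Krt8 ran closest to Mapre1, a microtubule plus-end protein (Pearson r = 0.964), Eftud2 (0.957) and Prelid1 (0.954). Vim ran closest to Atp5pf (0.955), Shmt1 (0.954) and Flna, the actin crosslinker filamin A (0.922). Apoc3 ran closest to Gadd45b (0.979), whose mean signal was 841.5 in normal and 124.5 in tumor cells with arginine, Pla2g6 (0.963) and Slit3 (0.958). A1cf had weaker neighbours in Wnt2b (0.794), Bet1l (0.724) and Tspan5 (0.677), and A2m had Ndufb5 (0.884), Mtch2 (0.864) and Txndc15 (0.849).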
